A study of Homo sapiens with 6 samples.

Results

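The genes described here build and police the attachment of chromosomes to the mitotic spindle. They are 55 genes chosen by name as kinetochore, centromere, spindle checkpoint and closely allied mitotic genes, out of 62700 rows in the table of counts, and all 55 names were found once each. RNA was sequenced from the Ewing sarcoma line A673, in 3 libraries labelled EWS-FLI1 knockout (KO) and 3 libraries labelled parental control, with the fusion gene wild type (WT). EWS-FLI1 joins part of EWSR1, which binds RNA, to the DNA-binding part of FLI1, an ETS factor, and drives this tumour. The series asks how the fusion affects alternative splicing, and the values used here are counts per gene. The labels do not say how the knockout was made, whether it is 1 clone or a pool, or whether replicates were separate cultures, so a difference between clones and the loss of the fusion cannot be told apart. P-values are set by how far these libraries differ, which may be a technical spread.

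A kinetochore is built on centromeric chromatin that carries the histone H3 variant CENPA. An inner layer of CENP proteins, the constitutive centromere-associated network (CCAN), binds this chromatin, and an outer layer made of KNL1 and the MIS12 and NDC80 complexes grips the microtubules. Kinetochores that are not attached switch on the spindle checkpoint, which holds back CDC20 and with it the ubiquitin ligase that starts anaphase, while the Aurora B kinase releases faulty attachments. Many of these genes are transcribed mainly in G2 and mitosis, so their RNA in a population of cells depends on how many cells are dividing as well as on the level in each. In bulk RNA, fewer dividing cells and less RNA per dividing cell cannot be told apart.

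Library totals ranged from 301605666 to 310465330 estimated counts in KO libraries and from 324069161 to 342624492 in WT libraries. The genotypes differed in composition, since collagen genes took 6.92% ± 0.0766 of counts in KO libraries and 0.192% ± 0.00546 in WT libraries (SD, n = 3 each), and mitochondrial genes took 2.73% ± 0.353 in KO and 3.75% ± 0.104 in WT libraries. EWSR1 averaged 245 ± 6.21 CPM in KO and 293 ± 6.2 CPM in WT libraries (SD, n = 3 each). FLI1 averaged 53.1 ± 2.11 CPM in KO and 40.7 ± 1.15 CPM in WT libraries. These counts add the fusion transcript to the normal transcripts and so do not check the label. All 8 Ewing sarcoma markers fell, and their summed level was 675 to 686 CPM in KO and 3952 to 3976 CPM in WT libraries. Marker levels in this paragraph are scaled by total counts alone. The EWSR1 and FLI1 levels are instead normalised by the trimmed mean of M values (TMM). TMM factors were 0.848 to 0.888 in KO and 1.14 to 1.17 in WT libraries. Scaling by total counts alone would therefore give lower KO and higher WT levels of both genes. The summed level of 4 epithelial markers was 0.606 to 0.973 CPM in KO and 1.03 to 1.30 CPM in WT libraries. Of haematopoietic markers, CD68 held 10.8, 10.9 and 10.0 CPM in KO and 6.47, 5.51 and 5.64 CPM in WT libraries, and PTPRC held 1.39, 1.30 and 1.18 CPM in KO and 0.177, 0.117 and 0.147 CPM in WT libraries. The summed level of 4 endothelial markers, mostly PECAM1 in KO libraries, was 7.26 to 7.89 CPM in KO and 0.607 to 0.735 CPM in WT libraries. CD3E was at 0 in 1 KO and 2 WT libraries and KRT19 at 0 in 1 KO library, and the part of these cell types in any result was not tested. Replicate 1 stood apart within each genotype: the chi-square per degree of freedom of its counts against the other replicates was 63.1 and 78.1 in KO and 47.8 and 31.4 in WT libraries, against 18.2 between KO replicates 2 and 3 and 11.1 between WT replicates 2 and 3.

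Most of the 55 genes were lower in the knockout, by unequal amounts. Levels are CPM, that is counts scaled to a common library total and normalised by the trimmed mean of M values (TMM). They are listed for replicates 1, 2 and 3 of a genotype. The marker levels above were not normalised by TMM. Each log2 fold change is KO over WT with the standard error (SE) of edgeR's quasi-likelihood fit to all genes, and a gene is called at an adjusted p under 0.05 over all 28485 genes tested. All 55 genes passed the filter on low counts. The knockout was lower in 45 of them, higher in 4, and 6 did not pass. Over all tested genes 37.5% fell and 36.3% rose, 73.8% in all, so that a rise or fall alone is common here, while 81.8% of the kinetochore and checkpoint genes fell. Among the 14742 tested genes of at least 1 CPM on average, 42.0% fell and 45.3% rose. The median log2 fold change of the 55 genes was -0.55 with quartiles of -1.13 and -0.24, against a median of -0.056 over all tested genes. The KO libraries lay wholly below the WT libraries in 45 genes and wholly above in 4, against 39.5% and 37.1% of all tested genes, or 76.7% in either direction. Tested against a change of 1.5-fold with glmTreat, 24 fell and CENPP rose, where 23.2% of all tested genes fell and 24.7% rose.

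The size of these values depends on how libraries are scaled. Scaling by total counts moved the median of all tested genes by -0.42 on the log2 scale and gave 51 fallen genes and 1 risen gene, with 14949 fallen and 7370 risen genes in the whole table. Upper quartile factors moved it by -0.20 and gave 49 fallen and 3 risen genes, with 12780 and 8702 in the table. The median of the 55 genes minus that of all tested genes was -0.49 with TMM factors, a difference that scaling leaves almost as it is by construction. It was -0.41 with no filter on low counts and -0.58 with genes of at least 1 CPM. Summed over the 55 genes, the level was 2983 ± 94.1 CPM in KO and 4818 ± 83.7 CPM in WT libraries (SD, n = 3 each). As a share of all counts, which amounts to scaling by total counts, the same genes took 0.257% ± 0.00185 in KO and 0.558% ± 0.0151 in WT libraries.

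**Figure D1:**
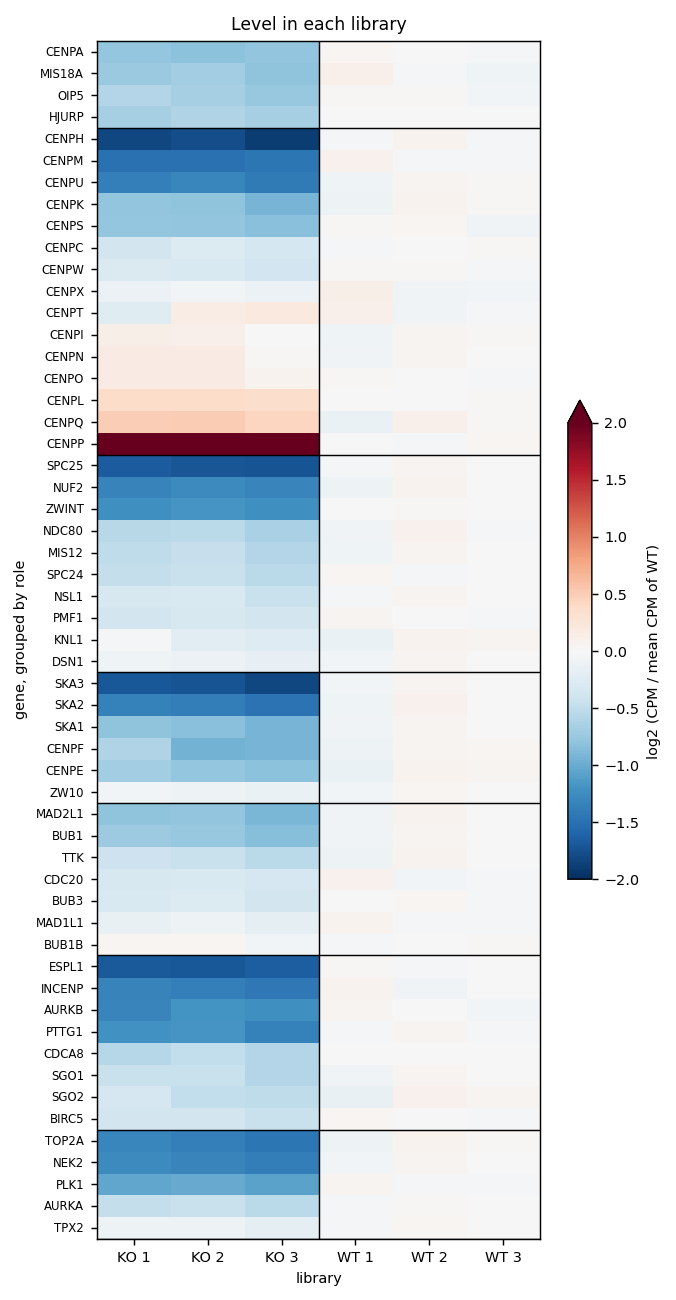
Level of each of the 55 genes in each library, as the log2 of its CPM over the mean CPM of the 3 WT libraries, with genes in rows grouped by role and libraries in columns. The 3 KO columns are alike in most rows, CENPP is beyond the upper end of the colour scale in every KO library, and CENPT differs between KO library 1 and the other KO libraries.

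Promoter sequences were read for the genes that mark the ends of this range and for CENPA, because genes of mitosis often carry a cell cycle homology region (CHR) and CCAAT boxes close to their start. RefSeq promoters on GRCh38.p14, from 250 bases before to 50 bases after the gene start, were available here for 45 of the 55 genes. AURKA, BIRC5, BUB3, CENPH, CENPL, CENPM, KNL1, MIS18A, TPX2 and TTK had no entry. SKA3 (chr13:21176503-21176802, minus strand) and SPC25 (chr2:168890381-168890680, minus strand) had the most negative log2 fold changes among genes with an entry. CENPP (chr9:92325218-92325517, plus strand) had the most positive one, and CENPA is at chr2:26785806-26786105 on the plus strand. Each sequence runs 5′ to 3′ along the gene, and capitals mark matches on either strand to the CHR letters TTTGAA, the CCAAT letters, a pair of GGAA repeats (GGAAGGAA) and the E2F letters TTTGGCGC or TTTCGCGC.
SKA3: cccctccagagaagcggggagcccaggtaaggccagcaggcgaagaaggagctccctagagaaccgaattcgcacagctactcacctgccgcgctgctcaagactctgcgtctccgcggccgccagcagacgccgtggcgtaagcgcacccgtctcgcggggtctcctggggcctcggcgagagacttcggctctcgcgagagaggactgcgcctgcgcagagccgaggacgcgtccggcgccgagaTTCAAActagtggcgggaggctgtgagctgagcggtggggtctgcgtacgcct
SPC25: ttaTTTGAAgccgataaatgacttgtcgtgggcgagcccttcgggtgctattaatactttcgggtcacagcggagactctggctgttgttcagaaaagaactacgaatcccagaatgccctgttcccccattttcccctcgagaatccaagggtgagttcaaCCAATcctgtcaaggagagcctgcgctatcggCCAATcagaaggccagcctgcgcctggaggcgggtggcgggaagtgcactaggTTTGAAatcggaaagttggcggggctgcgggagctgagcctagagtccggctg
CENPP: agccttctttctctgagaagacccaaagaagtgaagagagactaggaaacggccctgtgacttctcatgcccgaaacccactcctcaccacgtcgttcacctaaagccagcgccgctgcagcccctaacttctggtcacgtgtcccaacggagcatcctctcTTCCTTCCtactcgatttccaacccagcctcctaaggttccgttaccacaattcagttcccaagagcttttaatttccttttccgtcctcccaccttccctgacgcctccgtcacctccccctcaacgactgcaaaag
CENPA: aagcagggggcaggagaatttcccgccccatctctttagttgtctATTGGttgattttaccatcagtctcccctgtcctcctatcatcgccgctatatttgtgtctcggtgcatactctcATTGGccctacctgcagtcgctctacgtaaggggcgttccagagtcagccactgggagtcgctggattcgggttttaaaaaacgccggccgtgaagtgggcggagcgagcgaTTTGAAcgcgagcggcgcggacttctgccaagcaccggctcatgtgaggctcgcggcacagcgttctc

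The SKA3, SPC25 and CENPA promoters each held the CHR letters within 18 bases of the RefSeq start. They began at positions -3, -3 and -18 counted from that start, and SPC25 held them again at -247. SPC25 and CENPA also held CCAAT letters on 1 strand or the other, SPC25 at -88 and -56 and CENPA at -205 and -130. CENPP held neither, and was the 1 gene of the 45 with the pair of GGAA repeats, at -88. The CHR letters were in 21 of the 45 promoters (46.7%) and in 15.4% of 27305 RefSeq promoters of the same length. CCAAT letters were in 31 of them (68.9%) and in 35.7% of all promoters. The E2F letters were in 2 (4.44%, against 1.18% of all), and the GGAA pair was in 3.58% of all promoters. Of the 36 fallen genes with an entry 17 held the CHR letters, as did 1 of the 3 that rose and 3 of the 6 that did not pass. A match of letters is a description of the window and does not show that a factor binds there.

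The 4 genes that place CENPA at centromeres fell together, with log2 fold changes between -0.80 and -0.65, where 37.5% of all tested genes fell. CENPA (ENSG00000115163.15, chromosome 2 from 26764289 to 26801067 on GRCh38 in GENCODE release 29), the centromeric histone, held 19.7, 19.1 and 19.6 CPM in KO libraries and 34.7, 33.8 and 33.0 CPM in WT libraries. The fitted difference was -0.80 (SE 0.05, edgeR adjusted p = 2.85e-12), and the groups did not overlap. HJURP, the chaperone that deposits CENPA, held 77.2, 80.9 and 77.4 CPM in KO and 123, 123 and 123 CPM in WT libraries (-0.65, SE 0.047). MIS18A, a subunit of the complex that licenses new deposition, held 23.0, 23.7 and 22.1 CPM in KO and 41.2, 37.8 and 36.2 CPM in WT libraries (-0.74, SE 0.056). OIP5, its partner in that complex, held 10.7, 10.2 and 9.54 CPM in KO and 16.4, 16.4 and 15.6 CPM in WT libraries (-0.67, SE 0.06). All 4 genes were thus at 57.6% to 63.8% of their WT level in the fit. OIP5 shares 470 exonic bases with the antisense gene OIP5-AS1, which held 105 ± 6.25 CPM in KO and 111 ± 5.91 CPM in WT libraries (SD, n = 3 each). The kit described in the labels is not stated to keep strand, so reads in those bases cannot be told apart.

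The inner kinetochore was the least uniform layer. Among its 15 CCAN genes there were 7 that fell (46.7%), 4 that rose (26.7%) and 4 outside the threshold. Over all tested genes 37.5% fell and 36.3% rose, or 42.0% and 45.3% at 1 CPM or more. The log2 fold changes of the 15 genes ran from -1.83 to 2.30. Their median was -0.097, against -0.056 over all tested genes. CENPH, CENPI, CENPK and CENPM form 1 subcomplex, and they did not move alike. CENPH (ENSG00000153044.10, chromosome 5 from 69189548 to 69210357) held 11.7, 12.1 and 11.1 CPM in KO libraries and 40.3, 43.4 and 40.6 CPM in WT libraries. At -1.83 (SE 0.055, edgeR adjusted p = 3.81e-18) it had the most negative log2 fold change of the 55 genes. CENPM held 12.2, 12.2 and 12.5 CPM in KO and 36.2, 33.3 and 33.1 CPM in WT libraries (-1.47, SE 0.054). CENPK fell less (-0.84, SE 0.06), to 55.9% of its WT level. CENPI held 20.9, 20.7 and 19.3 CPM in KO and 18.2, 19.9 and 19.6 CPM in WT libraries, with groups that overlapped and an edgeR adjusted p of 0.218 (0.077, SE 0.055, but -0.35 when scaled by total counts).

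CENPO, CENPP, CENPQ and CENPU belong to another subcomplex, which binds the mitotic kinase PLK1 through CENPU, and its genes moved in opposite directions. CENPU fell and held 29.4, 30.7 and 28.4 CPM in KO and 72.0, 78.8 and 77.3 CPM in WT libraries (-1.37, SE 0.052, edgeR adjusted p = 3.32e-16). CENPQ was higher at 12.1, 12.2 and 11.6 CPM in KO and 7.84, 9.30 and 8.78 CPM in WT libraries (0.47, SE 0.066, edgeR adjusted p = 1.25e-06), and its value was 0.050 and did not pass when scaled by total counts (adjusted p = 0.513). CENPO held 58.7, 58.7 and 54.9 CPM in KO and 53.5, 52.9 and 51.3 CPM in WT libraries. It rose by 0.13 (SE 0.049, edgeR adjusted p = 0.0223), but fell by 0.30 when scaled by total counts and was at -0.076 with upper quartile factors. Without KO replicate 2 it did not pass (edgeR adjusted p = 0.0747). Nor did it pass with no filter on low counts or with genes of at least 1 CPM (edgeR adjusted p = 0.0674 and 0.0909).

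CENPP (ENSG00000188312.15, chromosome 9 from 92325484 to 92620533) was the exception in size among the 55 genes. It held 56.1, 52.5 and 51.0 CPM in KO libraries and 10.8, 10.6 and 11.1 CPM in WT libraries, 4.92-fold higher in the knockout (2.30, SE 0.055, edgeR adjusted p = 4.33e-20). It was called as risen under all 16 alternatives tried. The gene spans genes that are read from the opposite strand, among them OGN, OMD, ASPN and ECM2, which encode small leucine-rich or related proteins of the extracellular matrix. ASPN held 11.5, 11.1 and 10.4 CPM in KO and 0.0394, 0.0476 and 0.0602 CPM in WT libraries. ECM2 held 12.9, 12.4 and 11.6 CPM in KO and 0.152, 0.177 and 0.171 CPM in WT libraries. OGN held 3.26, 3.18 and 2.66 CPM in KO and 0.0184, 0.0318 and 0.0426 CPM in WT libraries. OMD held 0.426, 0.436 and 0.497 CPM in KO and 0.0131, 0.0291 and 0.0226 CPM in WT libraries. These 4 genes were higher in every KO library, and in GENCODE release 29 none of their exonic bases is shared with CENPP exons. IPPK, an inositol phosphate kinase on the opposite strand, shares 3719 exonic bases with CENPP and held 24.5, 24.5 and 24.3 CPM in KO and 9.78, 9.62 and 8.25 CPM in WT libraries (1.41, SE 0.063). NOL8, at the other end, shares 153 bases and held 48.7, 49.6 and 47.4 CPM in KO and 42.5, 46.3 and 45.3 CPM in WT libraries (0.12, SE 0.05). How much of the CENPP count came from reads of these neighbours was not tested.

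**Figure D2:**
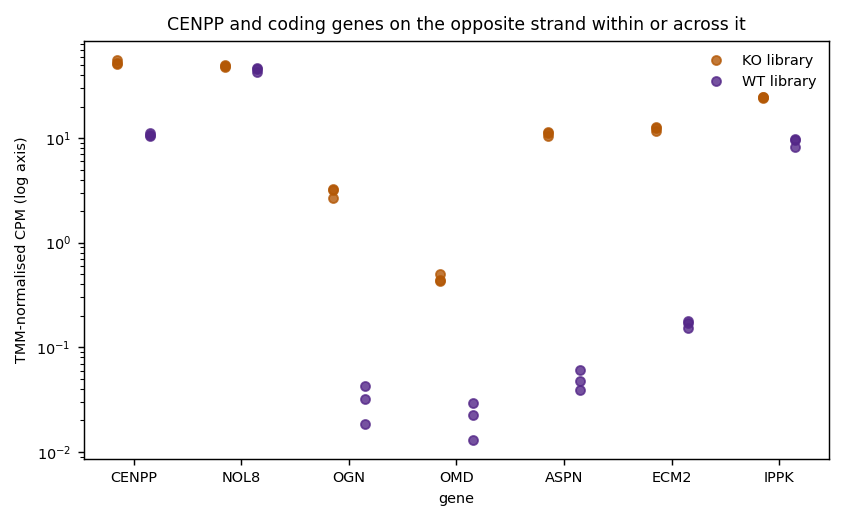
TMM-normalised CPM on a log axis of CENPP and of 6 coding genes on the opposite strand that lie within it or reach into it, with 1 point per library. CENPP, OGN, OMD, ASPN, ECM2 and IPPK are higher in all 3 KO libraries than in any WT library, and NOL8 differs little, at 48.6 ± 1.06 CPM in KO and 44.7 ± 1.98 CPM in WT libraries (SD, n = 3 each).

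CENPL and CENPN, which recognise the CENPA nucleosome as a pair, differed in their calls, with CENPN close to the threshold. CENPL held 16.3, 16.4 and 16.2 CPM in KO and 12.6, 12.5 and 12.8 CPM in WT libraries, and rose by 0.36 (SE 0.053, edgeR adjusted p = 2.76e-06), but was at -0.061 when scaled by total counts. CENPN held 51.8, 51.9 and 47.2 CPM in KO and 44.3, 48.4 and 46.6 CPM in WT libraries, with overlapping groups (0.12, SE 0.053, edgeR adjusted p = 0.0538). It passed as higher with DESeq2 size factors (0.14, edgeR adjusted p = 0.0221) and with the DESeq2 Wald test (adjusted p = 0.0277). The same held with thinned counts (edgeR adjusted p = 0.0471) and without WT replicate 1, WT replicate 2 or KO replicate 3 (edgeR adjusted p = 0.0399, 0.00963 and 0.00877). CENPN passed as lower at -0.31 when scaled by total counts.

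The histone-fold genes CENPS, CENPT, CENPW and CENPX were split as well. CENPS fell (-0.80, SE 0.052) and CENPW fell less (-0.33, SE 0.052). CENPX held 27.7, 29.1 and 27.7 CPM in KO and 32.5, 28.8 and 29.1 CPM in WT libraries and did not pass (-0.097, SE 0.055, edgeR adjusted p = 0.118). It passed as lower with total counts (-0.52), upper quartile factors (-0.30), no filter on low counts (-0.13) and genes of at least 1 CPM (-0.15). CENPT, which carries NDC80 complexes on its tail, held 52.8, 69.5 and 71.8 CPM in KO and 67.0, 59.5 and 61.4 CPM in WT libraries. KO library 1 was low and the other KO libraries were high, so that the groups overlapped (0.047, SE 0.13, edgeR adjusted p = 0.77). Without KO library 1 CENPT passed as higher at 0.19 (edgeR adjusted p = 0.00220). CENPC, which ties CENPA nucleosomes to the MIS12 complex, fell (-0.33, SE 0.061). CENPS shares 1126 exonic bases with the read-through gene CENPS-CORT, whose counts were 10.6% of those of CENPS in KO and 8.81% in WT libraries.

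**Figure D3:**
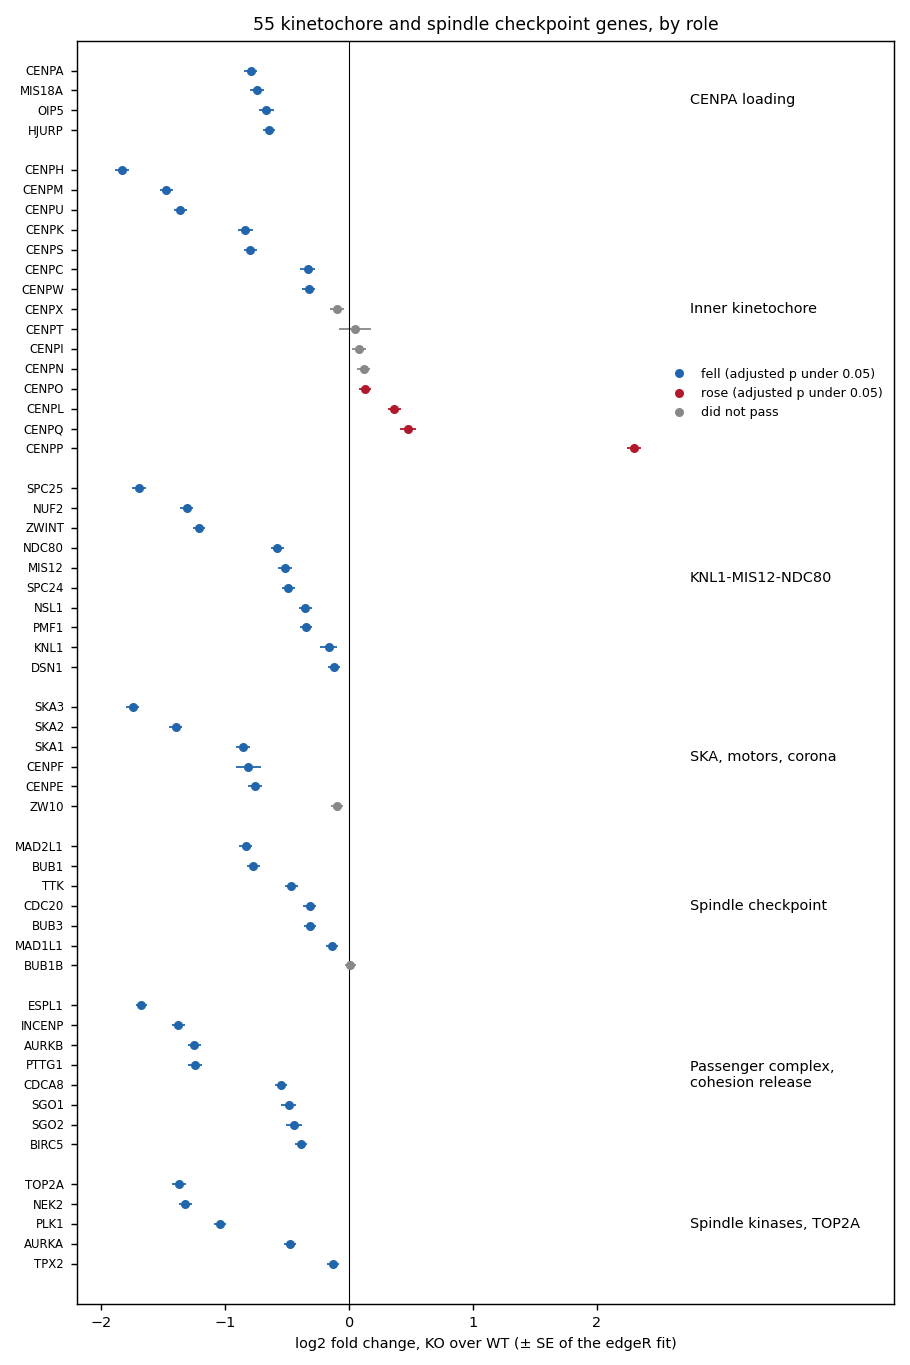
The log2 fold change of each of the 55 genes, KO over WT, with bars for the SE of the edgeR fit and colours for the call at an adjusted p under 0.05, grouped by role. Values run from -1.83 for CENPH to 2.30 for CENPP, and all 4 risen genes are in the inner kinetochore.

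In the outer kinetochore every gene fell, by unequal amounts. All 10 genes of the KNL1, MIS12 and NDC80 network were called lower, with a median of -0.50 and a range from -1.70 to -0.12, and 3 of them fell beyond 1.5-fold. Of all tested genes 37.5% were called lower. The 30% of this network that fell beyond 1.5-fold is near the 23.2% of all tested genes. The NDC80 complex, the main microtubule grip, joins NDC80 and NUF2 at its outer end and SPC24 and SPC25 at its inner end. SPC25 held 12.1, 11.6 and 11.6 CPM in KO and 37.0, 39.4 and 38.0 CPM in WT libraries (-1.70, SE 0.053, edgeR adjusted p = 6.78e-18). Its partner SPC24 fell less, at -0.49 (SE 0.05). NUF2 held 28.2, 29.2 and 28.3 CPM in KO and 66.3, 74.5 and 71.5 CPM in WT libraries (-1.31, SE 0.052). NDC80 itself held 48.6, 49.0 and 45.4 CPM in KO and 68.1, 75.3 and 70.4 CPM in WT libraries (-0.58, SE 0.052). SPC25 and NUF2 thus fell further than SPC24 and NDC80.

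ZWINT, which binds KNL1, held 49.7, 51.2 and 49.7 CPM in KO and 115, 119 and 115 CPM in WT libraries (-1.21, SE 0.047, edgeR adjusted p = 4.48e-16). KNL1, the scaffold on which checkpoint proteins gather, held 35.6, 31.2 and 30.4 CPM in KO and 33.1, 38.0 and 38.0 CPM in WT libraries. Its groups overlapped, with KO library 1 above WT library 1 (-0.17, SE 0.067, edgeR adjusted p = 0.036). Of the MIS12 complex, MIS12 changed by -0.52 (SE 0.054), NSL1 by -0.35 (SE 0.052), PMF1 by -0.35 (SE 0.049) and DSN1 by -0.12 (SE 0.051). KNL1 and DSN1 did not pass with DESeq2 size factors (edgeR adjusted p = 0.0647 and 0.0988) and lost their calls without WT replicate 2 or 3 or KO replicate 2 or 3 (edgeR adjusted p from 0.0695 to 0.216). Their smallest values were -0.11 for KNL1 without KO replicate 3 and -0.074 for DSN1 without WT replicate 2.

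Of 6 genes of the SKA complex, motors and corona, 5 fell and ZW10 did not pass, with a median of -0.84. Among all tested genes 37.5% fell, and 23.2% fell beyond 1.5-fold. The SKA complex follows microtubule ends as they shorten, and all 3 of its genes fell beyond 1.5-fold. SKA3 (ENSG00000165480.16, chromosome 13 from 21153595 to 21176602) held 25.1, 24.7 and 23.2 CPM in KO and 78.7, 84.9 and 81.4 CPM in WT libraries (-1.75, SE 0.052, edgeR adjusted p = 3.17e-18). SKA2 held 52.5, 51.2 and 47.7 CPM in KO and 126, 141 and 133 CPM in WT libraries (-1.40, SE 0.054). SKA1 held 16.9, 16.7 and 15.5 CPM in KO and 28.2, 30.9 and 29.7 CPM in WT libraries (-0.86, SE 0.055). The groups were far apart for each of the 3 genes. CENPE, a kinesin that carries chromosomes to the spindle equator, held 66.1, 62.5 and 60.7 CPM in KO and 97.0, 113 and 111 CPM in WT libraries (-0.76, SE 0.058). CENPF, a large protein of the outer corona, held 259, 205 and 205 CPM in KO and 366, 407 and 404 CPM in WT libraries (-0.81, SE 0.1, edgeR adjusted p = 0.000184). KO library 1 was above the other KO libraries and below every WT library, and without it the value was -0.92. ZW10, which brings dynein and the checkpoint proteins MAD1L1 and MAD2L1 to the corona, held 28.3, 27.4 and 27.1 CPM in KO and 28.4, 30.5 and 29.8 CPM in WT libraries. Its groups were adjacent without overlap and it did not pass (-0.099, SE 0.051, edgeR adjusted p = 0.0868). But it passed as lower with total counts (-0.52) and upper quartile factors (-0.30). It also passed with no filter on low counts (-0.13), with genes of at least 1 CPM (-0.15) and without WT replicate 1 (-0.11).

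The spindle checkpoint genes changed little for the most part. Among 7 genes 6 fell and BUB1B did not pass. Their median was -0.32, and MAD2L1 and BUB1 were the 2 that fell beyond 1.5-fold. That is 28.6% of the 7 genes, near the 23.2% of all tested genes, while 37.5% of all tested genes fell at any size. MAD2L1, the protein that captures CDC20, held 57.0, 57.9 and 52.9 CPM in KO and 95.1, 105 and 99.7 CPM in WT libraries (-0.84, SE 0.052, edgeR adjusted p = 2.62e-12). BUB1, a kinase that recruits the other checkpoint proteins, held 64.4, 62.9 and 58.8 CPM in KO and 101, 110.4 and 107 CPM in WT libraries (-0.78, SE 0.052). TTK, the kinase that starts the signal, held 45.7, 44.6 and 41.7 CPM in KO and 56.8, 64.1 and 61.5 CPM in WT libraries (-0.47, SE 0.054). BUB3, the adaptor of BUB1 and BUB1B, held 144, 147 and 138 CPM in KO and 177, 183 and 174 CPM in WT libraries (-0.32, SE 0.048). In these 4 genes every KO library was below every WT library. CDC20, the target of the checkpoint, changed by -0.32 (SE 0.05) and MAD1L1, the anchor of MAD2L1, by -0.14 (SE 0.05). BUB1B (ENSG00000156970.13, chromosome 15 from 40161023 to 40221136), which encodes the checkpoint protein BUBR1, held 149, 151 and 141 CPM in KO and 143, 146 and 149 CPM in WT libraries. Its groups overlapped and the fit gave 0.010 (SE 0.048, edgeR adjusted p = 0.859), although it passed as lower when scaled by total counts (-0.41) or upper quartile factors (-0.19). MAD1L1 did not pass with DESeq2 size factors or without KO replicate 3 (edgeR adjusted p = 0.0513 and 0.0785).

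All 8 genes of the chromosomal passenger complex and of cohesion release fell. Their median was -0.90, and 4 fell beyond 1.5-fold. The shares over all tested genes were 37.5% fallen and 23.2% fallen beyond 1.5-fold. The passenger complex joins the kinase AURKB to INCENP, its scaffold, and to BIRC5 (survivin) and CDCA8 (borealin), which dock it on chromatin. INCENP held 79.9, 77.7 and 74.5 CPM in KO and 212, 193 and 199 CPM in WT libraries (-1.38, SE 0.051, edgeR adjusted p = 1.92e-16). AURKB held 54.8, 59.5 and 58.3 CPM in KO and 143, 136 and 132 CPM in WT libraries (-1.25, SE 0.051). The docking subunits fell less, with CDCA8 at -0.55 (SE 0.048) and BIRC5 at -0.39 (SE 0.048). Separase, encoded by ESPL1, cuts cohesin once its inhibitor securin, encoded by PTTG1, has been destroyed. ESPL1 (ENSG00000135476.12, chromosome 12 from 53268299 to 53293643) held 47.3, 47.1 and 48.3 CPM in KO and 155, 148 and 153 CPM in WT libraries (-1.68, SE 0.048, edgeR adjusted p = 1.45e-18). PTTG1 held 31.8, 32.3 and 28.8 CPM in KO and 71.7, 75.9 and 72.3 CPM in WT libraries (-1.24, SE 0.053). The shugoshins SGO1 and SGO2, which protect centromeric cohesin until then, changed by -0.49 (SE 0.057) and -0.44 (SE 0.065).

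Mitotic kinases and TOP2A fell as well, from a small change in TPX2 to large ones in TOP2A and NEK2. TOP2A, which untangles sister chromatids, held 194, 185 and 175 CPM in KO and 446, 501 and 487 CPM in WT libraries (-1.37, SE 0.055). NEK2, a kinase of centrosome separation, held 24.6, 23.8 and 22.8 CPM in KO and 57.3, 61.7 and 58.9 CPM in WT libraries (-1.32, SE 0.052). PLK1, the kinase that acts throughout mitosis, held 125, 129 and 123 CPM in KO and 269.9, 252 and 255 CPM in WT libraries (-1.04, SE 0.048, edgeR adjusted p = 1.14e-14). These 3 genes fell beyond 1.5-fold, as did 23.2% of all tested genes. AURKA, the kinase of the spindle poles, held 70.1, 71.7 and 67.2 CPM in KO and 95.7, 99.0 and 96.9 CPM in WT libraries (-0.48, SE 0.048). Its activator TPX2 was at -0.14 (SE 0.048, edgeR adjusted p = 0.0162). It did not pass with DESeq2 size factors (edgeR adjusted p = 0.0611), and without WT replicate 2 or KO replicate 3 it was at -0.098 and -0.088 and did not pass either.

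To set binding partners against each other, the ratio of their estimated counts was taken within each library. Such a ratio is free of library scaling. Its difference between genotypes is free of gene length only if each gene keeps the same mix of transcripts, which was not tested. The 24 pairs were chosen with the values above known, and their differences between genotypes ran from 0.13 to 2.17 in size on the log2 scale with a median of 0.50. An exact two-sided permutation test of 3 against 3 libraries cannot give a p below 0.1, so sizes are read against the spread of the libraries. The log2 ratio of SPC25 to SPC24 was -1.30, -1.39 and -1.30 in KO libraries and -0.22, -0.045 and -0.12 in WT libraries, a difference of -1.21. For NUF2 to NDC80 it was -0.79, -0.75 and -0.68 in KO and -0.039, -0.016 and 0.022 in WT libraries (-0.73). In both pairs every KO library was below every WT library. These differences restate the log2 fold changes above, gene against gene, and are no further evidence for them.

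The 3 largest differences were in inner kinetochore pairs, while others there were small, such as 0.25 for CENPL to CENPN. CENPH to CENPI gave -0.83, -0.78 and -0.80 in KO and 1.15, 1.12 and 1.05 in WT libraries (-1.91), and CENPH to CENPK gave -0.19, -0.12 and -0.12 in KO and 0.91, 0.84 and 0.80 in WT libraries (-0.995). CENPQ to CENPU gave -1.28, -1.33 and -1.29 in KO and -3.20, -3.08 and -3.14 in WT libraries (1.84). CENPO to CENPP gave 0.066, 0.16 and 0.11 in KO and 2.31, 2.33 and 2.21 in WT libraries (-2.17), which carries the CENPP count described above. KNL1 to ZWINT gave -0.48, -0.72 and -0.71 in KO and -1.80, -1.65 and -1.60 in WT libraries (1.05). AURKB to INCENP gave -0.54, -0.39 and -0.35 in KO and -0.57, -0.50 and -0.59 in WT libraries, with overlapping groups (0.13, exact permutation p = 0.2). For CENPA to HJURP the difference was -0.15, for BIRC5 to CDCA8 0.16 and for MIS12 to PMF1 -0.17, each with an exact permutation p of 0.1. INCENP to CDCA8 differed more, at 0.72, 0.60 and 0.64 in KO and 1.55, 1.43 and 1.47 in WT libraries (-0.83). Within the SKA complex, SKA1 to SKA3 gave -0.57, -0.57 and -0.58 in KO and -1.48, -1.46 and -1.46 in WT libraries (0.89), with libraries of a genotype almost equal.

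**Figure D4:**
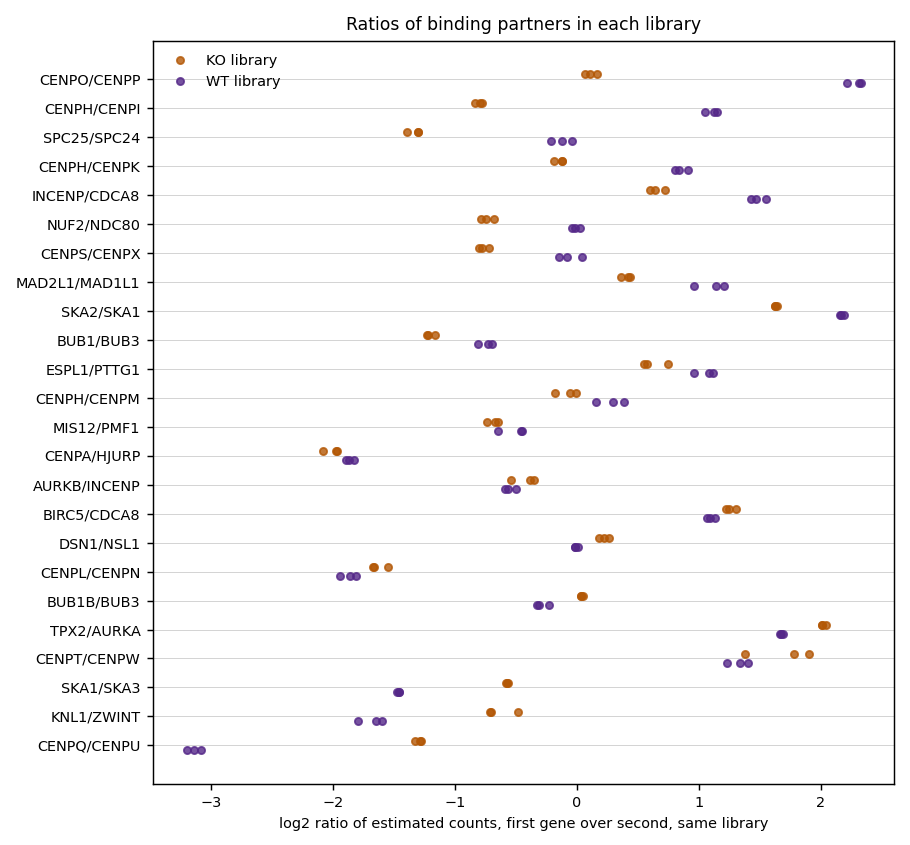
Log2 ratio of the estimated counts of 24 pairs of binding partners or subunits of 1 complex in each library, ordered by the difference KO minus WT from -2.17 for CENPO/CENPP to 1.84 for CENPQ/CENPU, with 3 points per genotype. Points of a genotype lie close together except for KO libraries of CENPT/CENPW, and AURKB/INCENP and CENPT/CENPW are the pairs whose groups overlap.

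The other genes of cell division were listed by role, and more of them fell than rose. Among 134 such genes 93 were lower, 17 higher and 24 outside the threshold, around a median of -0.49. The shares to read these and the next counts against are the 37.5% that fell and 36.3% that rose over all tested genes, or 42.0% and 45.3% at 1 CPM or more. These shares are for TMM factors. With upper quartile factors 12780 of all 28485 tested genes fell and 8702 rose, and with total counts 14949 fell and 7370 rose. Of 20 further kinetochore and checkpoint genes 15 fell and 3 rose (median -0.61). CENPV changed by -2.36 (SE 0.054) and SPAG5 (astrin), a protein of attached kinetochores, by -1.82 (SE 0.047). CENPB, which binds centromeric satellite DNA, rose by 1.03 (SE 0.052), as did ZWILCH, a partner of ZW10, by 0.66 (SE 0.056) and the dynein light chain DYNLL1 by 0.34 (SE 0.048, but -0.088 when scaled by total counts). Of 18 genes of the anaphase-promoting complex, the ligase that CDC20 activates, 9 fell and 3 rose (median -0.17), or 50% and 16.7% of the list. Without WT replicate 1 the number risen was 6, and 14 fell with upper quartile factors and 15 with total counts. UBE2S, which extends its ubiquitin chains, changed by -1.26 (SE 0.055) and the subunit CDC27 by -0.94 (SE 0.053). CDC26 rose by 0.63 (SE 0.058), while ANAPC13 at 0.41 (SE 0.048) and ANAPC2 at 0.29 (SE 0.085) rose with TMM factors and were below 0 when scaled by total counts. The groups overlapped in ANAPC2, which did not pass without WT replicate 2 or WT replicate 3 (edgeR adjusted p = 0.0751 and 0.0637) or with upper quartile factors (0.088, edgeR adjusted p = 0.405).

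Of 20 cohesin and condensin genes 15 fell and 5 did not pass by edgeR (median -0.52), with the condensin subunit NCAPH at -1.29 (SE 0.049) and the cohesin subunit SMC1A at -1.07 (SE 0.051). In this list 1 gene rose with DESeq2 size factors or without WT replicate 2, and 2 rose without KO replicate 3. Of 12 genes of mitotic entry 9 fell and 2 rose (median -0.70). CDC25C, a phosphatase that switches on CDK1, changed by -1.95 (SE 0.055). WEE1, the kinase that holds CDK1 off, was higher at 62.7, 64.5 and 63.9 CPM in KO and 19.5, 20.7 and 20.4 CPM in WT libraries (1.66, SE 0.05, edgeR adjusted p = 3.71e-18). CDC25B, another phosphatase of CDK1, rose by 1.03 (SE 0.048). Both risen genes kept the KO libraries wholly above the WT libraries.

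Of 24 genes of spindle assembly and cytokinesis 16 fell and 5 rose (median -0.36). The number risen was 3 without KO replicate 1 or KO replicate 2, with upper quartile factors, with no filter or with genes of at least 1 CPM, and 2 with total counts. HMMR, a protein of the spindle poles, changed by -2.08 (SE 0.058) and the kinesin KIF18A by -1.07 (SE 0.054), while the cytokinesis genes ANLN and CEP55 rose by 0.80 (SE 0.051) and 0.59 (SE 0.051). HAUS8, of the augmin complex that branches microtubules, rose by 0.30 (SE 0.05) and was at -0.12 when scaled by total counts. Of 14 genes of the DREAM, MuvB and FOXM1 regulators of mitotic transcription 7 fell and 3 rose (median -0.14), with 11 fallen under upper quartile factors and 12 under total counts. The number of fallen genes among all 28485 tested was 12780 and 14949 under these scalings, against 10687 with TMM factors. The MuvB subunits LIN9 and RBBP4 were at -0.95 (SE 0.057) and -0.76 (SE 0.049). The repressor E2F4, the MuvB subunit LIN37 and the E2F partner TFDP2 rose by 0.42 (SE 0.051), 0.41 (SE 0.065) and 0.19 (SE 0.056) with TMM factors but were below 0 when scaled by total counts. Of 26 genes that replicate DNA or start S phase, 22 fell and CCNE2 rose (median -0.76). The primase subunit PRIM1 and the ligase LIG1 had log2 fold changes of -2.18 (SE 0.059) and -1.76 (SE 0.05), and CCNE2, a cyclin of S phase entry, rose by 0.56 (SE 0.087) but was at 0.13 and did not pass when scaled by total counts (edgeR adjusted p = 0.155). The median of -0.55 of the kinetochore and checkpoint genes lay between those of the mitotic regulators and of the replication genes, and no test of a difference between lists was made.

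**Figure D5:**
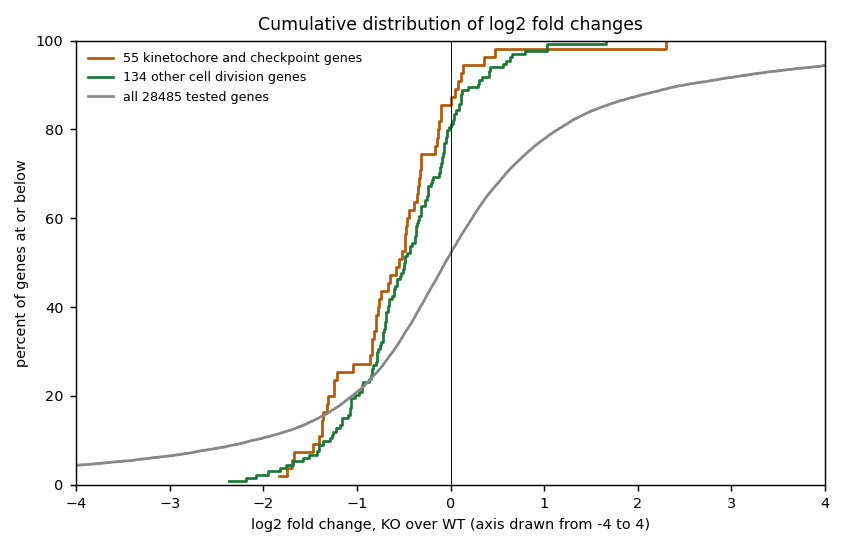
Cumulative share of genes at or below each log2 fold change, KO over WT, for the 55 kinetochore and checkpoint genes, 134 other cell division genes and all 28485 tested genes. Medians are -0.55, -0.49 and -0.056, and the cell division genes span a narrower range than all tested genes, which reach beyond the axis on both sides.

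Some counts may include reads of a neighbouring gene. In GENCODE release 29, 20 of the 55 genes share exonic bases with another gene, and for 13 of them an opposite-strand partner reached 1 CPM. Such overlaps include those of CENPO with ADCY3 (1488 bases, ADCY3 at 38.6 ± 0.68 CPM in KO and 30.3 ± 1.31 CPM in WT libraries, SD, n = 3 each) of SGO1 with SGO1-AS1 (679 bases, SGO1-AS1 at 0.661 ± 0.08 CPM in KO and 1.09 ± 0.232 CPM in WT libraries) and of CENPT with TSNAXIP1 (596 bases, TSNAXIP1 at 2.05 ± 0.27 CPM in KO and 3.12 ± 0.0174 CPM in WT libraries). CENPA shares 138 bases with SLC35F6 on its own strand, which held 51.3 ± 2.82 CPM in KO and 37.6 ± 0.459 CPM in WT libraries. PMF1 shares 587 bases with the read-through PMF1-BGLAP, at 10.7% of the counts of PMF1 in KO and 13.2% in WT libraries. Among the 35 genes that share no exonic base, 32 fell, CENPQ rose, CENPI and ZW10 did not pass, and the median was -0.74. Of all tested genes 37.5% fell and 36.3% rose.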

How the data were processed

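The authors deposited a table of estimated counts per gene, quantified with kallisto 0.48.0 on hg38 per the submitters' processing notes. The sources used here do not give the transcript annotation, the way transcripts were summed to genes or the strand setting. Columns were matched to samples by title, and 0 other columns of per-sample values were in the table. Estimated counts were rounded to whole numbers. Genes were filtered with filterByExpr, scaled with TMM factors and tested with edgeR 4.0.16 (glmQLFit with robust estimation, glmQLFTest, and glmTreat at 1.5-fold) in R 4.3.3, with Benjamini-Hochberg adjustment over 28485 genes and a threshold of 0.05. The design was KO against WT with no covariate, and no batch is given in the labels. A count of 0 allows up to 3 counts, or 0.00876 to 0.00995 CPM when scaled by total counts, which covers counting error only. Given with all 6 values are, for each role, the up to 4 genes with the smallest adjusted p and every gene that rose, did not pass or had overlapping groups. Of each other list the 2 genes with the smallest adjusted p and up to 3 that rose are named. Promoters are those of the 2 genes with the most negative and the 1 with the most positive log2 fold change that had an entry, and of CENPA. The 55 genes, the lists and the partner pairs were chosen with earlier results of these data known.

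Alternatives were DESeq2 1.42.0 size factors and Wald test, limma 3.58.1 voom, other scalings and filters, unrounded and thinned counts, a replicate block, and each library left out in turn. Positions and exon overlaps came from GENCODE release 29 on GRCh38, and promoter sequences from RefSeq on GRCh38.p14. Of the marker genes and of the overlapping neighbours, 1 each is not reported here. The steps were tested on simulated data.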

Additional observations from a re-analysis of the deposited data

How the results depend on the processing

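Over the 16 alternatives, between 41 and 51 of the 55 genes fell and between 1 and 5 rose, and their median ran from -0.97 to -0.51. In the whole table between 6672 and 14949 genes fell and between 6371 and 11218 rose. Scaling by total counts alone gave 1 risen gene, 41 genes lower beyond 1.5-fold, 7 risen genes among the other cell division genes and a median of -0.97. That scaling also moved the median of all tested genes by -0.42, with 14949 fallen and 7370 risen genes in the whole table. How many of all tested genes lay beyond 1.5-fold was not counted under the alternatives. Upper quartile factors gave a median of -0.75. Testing only genes with a mean of at least 1 CPM gave 6672 fallen and 6371 risen genes, since fewer were tested, and a median of -0.60 for the 55 genes, where the cause was not tested. Without 1 library at a time, 41 to 46 of the 55 genes fell and 3 to 5 rose, 23 to 25 fell beyond 1.5-fold and 1 rose beyond it each time, the median was -0.57 to -0.51, 92 to 96 of the other cell division genes fell and 15 to 21 rose, and 9948 to 10852 genes of the table fell and 10148 to 10562 rose. Same-numbered libraries deviated from their group means with correlations of -0.16, -0.061 and 0.033. With 3 libraries per group, such values cannot show whether the numbers pair the samples. With a replicate block, 43 genes fell and 4 rose, 3 genes of spindle assembly rose, and KNL1 and DSN1 did not pass (edgeR adjusted p = 0.0757 and 0.0683).

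Values of single genes changed sign 23 times. With total counts these were CENPI at -0.35, CENPL at -0.061, CENPN at -0.31, CENPO at -0.30, CENPT at -0.37, BUB1B at -0.41, DYNLL1 at -0.088, ANAPC13 at -0.0090, ANAPC2 at -0.13, HAUS8 at -0.12, E2F4 at -0.0024, LIN37 at -0.0087 and TFDP2 at -0.24. With upper quartile factors they were CENPI at -0.13, CENPN at -0.089, CENPO at -0.076, CENPT at -0.16, BUB1B at -0.19 and TFDP2 at -0.019. BUB1B was at -0.018 with no filter and at -0.043 with genes of at least 1 CPM, where CENPT was at -0.0047, and CENPT was at -0.019 without KO replicate 3 and 0.19 without KO replicate 1. Of the other values, 1260 kept direction and call, 29 lost the call and 16 gained it. The scalings differ in which genes they take as unchanged, and which of them is right was not tested. Each library held at least 301605666 estimated counts, and replicates differed by more than counting error.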
